A study of Mus musculus with 13 samples.

Results

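The 10 genes described here belong to the insulin-like growth factor (IGF) axis: the ligand gene Igf1, the receptor genes Igf1r and Insr, the adaptor gene Irs1, and the genes of the binding proteins Igfbp2, Igfbp3, Igfbp4, Igfbp5, Igfbp6 and Igfbp7. They were taken by symbol from a table of 38279 gene symbols, and all 10 passed the filter on low counts, as did 20101 symbols in all. Levels were compared between 6 mammary tumours and 4 whole mammary glands of mice. The tumours came from Cre-positive mice in which mating at 12 weeks of age induced excision of Fbxw7, a gene for a substrate-binding part of a ubiquitin ligase. Tumours 1 to 6 were taken at 25, 32, 39, 19, 53 and 25 weeks. The glands came from Cre-negative, wild-type mice, also mated at 12 weeks, glands 1 to 3 at 20 weeks and gland 4 at 40 weeks. Neither the promoter that drives Cre nor the litter, strain or run of a library is given in the sources used here. Genotype, tumour state and, in part, age differ together between the groups, and their effects cannot be told apart.

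In the IGF axis, the secreted ligands bind the receptor tyrosine kinase encoded by Igf1r, and insulin binds the related receptor encoded by Insr. Activated receptors phosphorylate adaptors such as the product of Irs1, which recruit PI 3-kinase and so engage Akt and mTOR. Binding proteins hold the ligands outside the cell, and proteases release them. In the mammary gland Igf1 is made largely by stromal cells under growth hormone and supports ductal growth, while Igfbp5 is known for its induction during involution.

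Total counts were 34865913 to 48325044 in tumours and 13723065 to 48353114 in glands. Salivary markers, a list of 20 of which 19 were in the table, took 52.4% and 19.6% of the counts of tumours 1 and 6, against at most 0.0444% in tumours 2 to 5 and 0.0529% in the glands. Fbxw7 itself was at 33.3, 47.3, 15.1, 27.8, 28.6 and 33.1 CPM in tumours 1 to 6, against 14.3, 17.8, 18.4 and 83.6 CPM in glands 1 to 4, and did not separate the groups (edgeR adjusted p = 0.888). The excised exons are not given here, so a count over the whole gene does not check the deletion. In gland 4, skeletal muscle markers took 6.63% of counts and mitochondrial transcripts 37.5%. Glands 2 and 3 stood apart in lymphocyte markers, with T cell sums of 569 and 450 CPM and B cell sums of 332 and 346 CPM, against at most 17.5 and 11.2 CPM in glands 1 and 4. In tumours these sums were 4.23 to 79.4 CPM for T cells and 4.21 to 58.5 CPM for B cells. Markers of luminal epithelium were present in every library, with summed levels of 1750 to 4080 CPM in tumours and 458 to 766 CPM in glands. Of these markers 8 of 10 rose, beside 6.89% of all tested genes called higher in the test described below. Levels are in CPM, counts scaled to library size, after TMM scaling, which sets libraries on a common scale by a trimmed mean of ratios.

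Of the 10 genes, Igfbp3 rose in tumours and Igf1, Igfbp6 and Igfbp7 fell (quasi-likelihood test in edgeR, with p adjusted by Benjamini and Hochberg over all genes tested and a threshold of 0.05). These 4 of 10 stand beside 15.1% of all tested genes, with 6.89% higher and 8.19% lower. The median log2 fold change of the 10 genes was -1.06, against 0.17 for all genes tested. The groups did not overlap in 2 of the 10 genes, Igf1 and Igfbp6, both lower in tumours, beside 14% of all tested genes (6.54% with tumours above and 7.5% with tumours below). The numbers of genes higher and lower were 1384 and 1646, and 1809 and 1313 under upper-quartile scaling. The calls were sensitive to the libraries used. Without tumour 2, 4 or 5 or gland 1, 2 or 3 in turn, 0 of the 10 genes passed in edgeR, although 5 to 7 of them kept an unadjusted p below 0.05. Without tumour 3 only Igfbp6 passed. With all libraries, 8 had an unadjusted p below 0.05, a share not counted over all tested genes. DESeq2 called 6 and limma-voom 3, beside 5252 and 3074 of 20101 tested genes. Without tumours 1 and 6 the count was 6, with Insr and Igfbp4 joining the genes that fell. In that fit 4255 of 19585 tested genes were called.

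**Figure D1:**
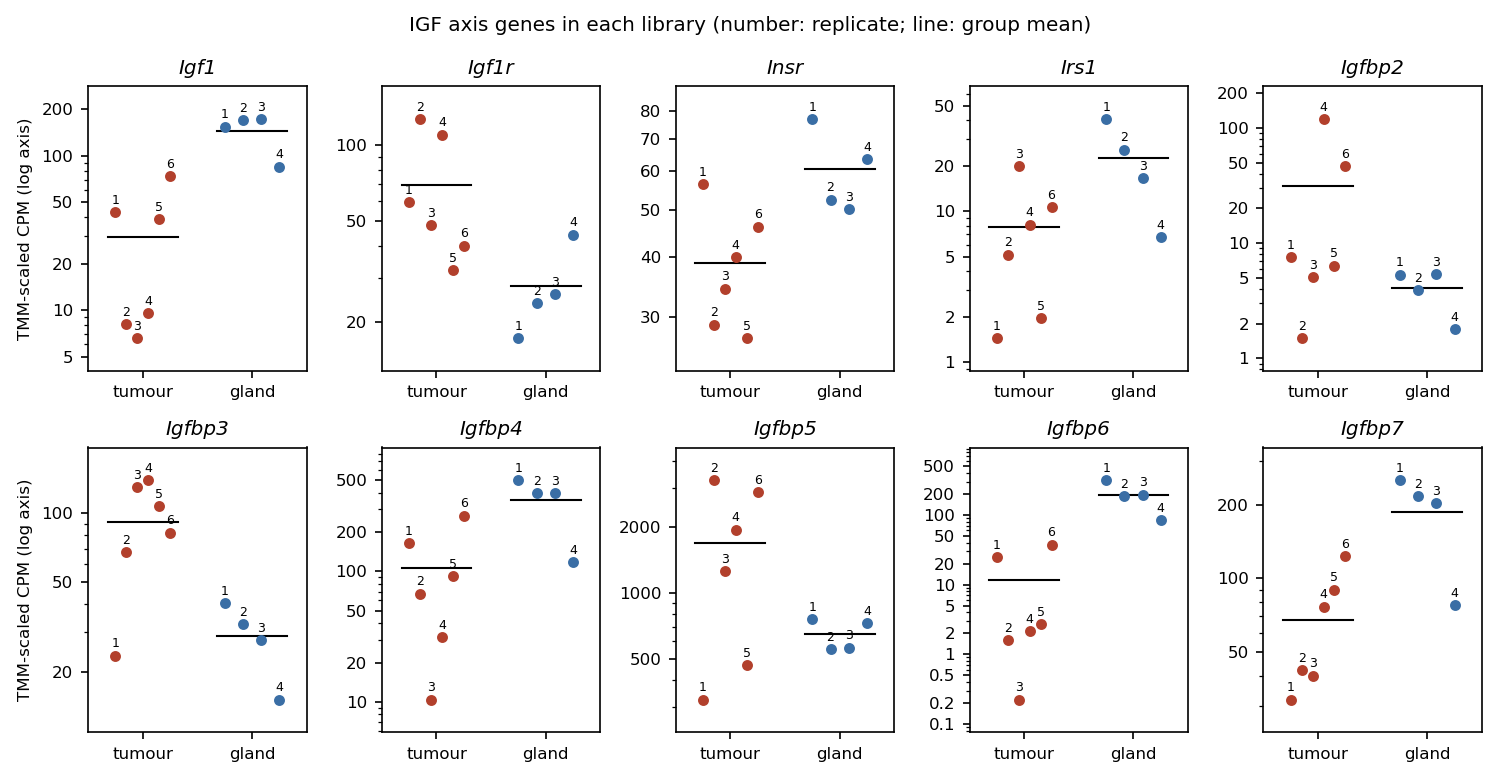
TMM-scaled CPM of each IGF axis gene on a log axis in 6 tumours and 4 glands, with replicate numbers beside the points and a line at each group mean. Every tumour lies below every gland for Igf1 and Igfbp6, and in the other 8 panels the groups overlap.

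**Figure D2:**
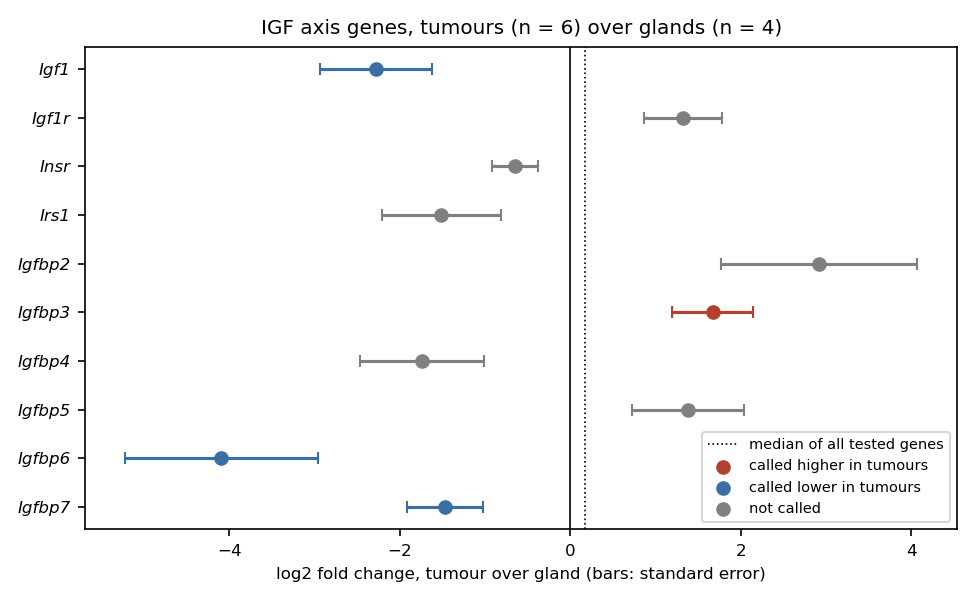
Log2 fold change of tumours over glands for each IGF axis gene, with bars for the standard error. Igfbp6 has the lowest value, -4.09, and Igfbp2 the highest, 2.92, which did not pass the test.

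The ligand gene Igf1 fell. It was at 43.0, 8.11, 6.60, 9.60, 38.7 and 73.7 CPM in tumours 1 to 6, against 154, 169, 173 and 84.7 CPM in glands 1 to 4. All 6 tumours lay below all 4 glands, and tumours 2, 3 and 4 formed the low end while tumours 1, 5 and 6 lay nearer to gland 4. The mean was 29.9 ± 26.8 CPM in tumours (SD, n = 6) and 145 ± 41.1 CPM in glands (SD, n = 4). The log2 fold change was -2.28 ± 0.655 (SE; adjusted p = 0.0398, edgeR), or 4.85-fold lower. It was -3.21 without tumours 1 and 6 (adjusted p = 0.00906). The call was lost without tumour 2, 3, 4 or 5 or gland 1, 2 or 3 (log2 fold changes -2.06 to -2.35, adjusted p = 0.051 to 0.0933) and with age as a covariate (adjusted p = 0.0928). Igf1os, the antisense gene of this locus, had 2 to 11 counts in tumours and 4 to 47 in glands. The counts at Igf1 itself were 267 to 2642 in tumours and 1332 to 10849 in glands. Without a statement on strand, reads of this pair cannot be told apart.

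Markers of cells that can make Igf1 were set beside it. A list of 10 fibroblast markers summed to 219 to 6700 CPM in tumours and 3660 to 8250 CPM in glands, with none at 0 in any library. Of these, 2 of 10 were called lower (Pdgfra and Col15a1), beside 8.19% of all tested genes. The median log2 fold change of the 10 markers was -2.02. In 4 of 10 every tumour lay below every gland, beside 7.5% of all tested genes. In rising order of this sum the tumours were 3, 2, 4, 1, 5 and 6. For Igf1 the order was 3, 2, 4, 5, 1 and 6. Such a sum is set mainly by its most abundant genes, in tumour 6 Col3a1 at 2510 CPM and Col1a2 at 1760 CPM. Single markers did not all follow this order, and Pdgfra was lowest in tumour 5, at 8.73 CPM. Adipocyte markers summed to 14.9 to 1080 CPM in tumours and 4060 to 25000 CPM in glands, and 10 of 10 fell. Only Lep, the leptin gene, was at 0 in any library. The part of fibroblasts or of adipocytes in the fall of Igf1 was not tested. In bulk tissue, fewer cells of a type and less RNA per cell cannot be told apart. Set against the mean log2 level of the fibroblast markers in the same library, Igf1 was at -0.666 ± 0.618 in tumours (SD, n = 6) and -1.08 ± 0.328 in glands (SD, n = 4), a difference of 0.412 on the log2 scale (exact permutation test, two-sided, p = 0.252, adjusted p = 0.303 over 6 ratios). The groups overlapped, from -1.73 to -0.0562 in tumours and from -1.56 to -0.868 in glands. Whether Igf1 per fibroblast marker differed is not decided by this, as a difference of either sign within this spread could be missed.

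The receptor gene Igf1r did not pass the test. It was at 59.6, 127, 48.3, 110, 32.0 and 40.1 CPM in tumours 1 to 6, against 17.3, 23.7, 25.8 and 44.3 CPM in glands 1 to 4. In 4 of 6 tumours the level lay above every gland, with tumours 2 and 4 highest, and the glands were topped by gland 4. The log2 difference was 1.32 ± 0.456 (SE; adjusted p = 0.0712, edgeR), and DESeq2 called it at 1.29 (adjusted p = 0.0317). Luminal epithelial markers were higher beside it. Against their mean log2 level, Igf1r was at -1.42 ± 0.672 in tumours (SD, n = 6) and -0.499 ± 0.706 in glands (SD, n = 4), a difference of -0.919 (exact permutation test, two-sided, p = 0.0762, adjusted p = 0.152 over 6 ratios).

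Insr, the insulin receptor gene, ran from 27.2 to 56.5 CPM in tumours (median 37.1) and from 50.1 to 76.9 CPM in glands. In 5 of 6 tumours it lay below every gland, and tumour 1 was the exception. The log2 difference was -0.645 ± 0.269 (SE; adjusted p = 0.121, edgeR). It passed without tumour 1, at -0.793 (adjusted p = 0.0493), and without tumours 1 and 6, at -0.908 (adjusted p = 0.0338). Insr was also the steadiest of the 10 genes among the tumours, with an SD of 0.404 on the log2 scale, and 13.2% of tested genes had a lower one.

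Ratios within a library do not depend on scaling between libraries. The log2 ratio of Igf1 to Igf1r counts was -0.47, -3.96, -2.87, -3.51, 0.274 and 0.875 in tumours 1 to 6, against 3.15, 2.84, 2.74 and 0.936 in glands 1 to 4. Every tumour lay below every gland, tumour 6 by the smallest margin. The means were -1.61 ± 2.09 in tumours (SD, n = 6) and 2.42 ± 1.00 in glands (SD, n = 4), a difference of -4.03 (exact permutation test, two-sided, p = 0.0143, adjusted p = 0.0429 over 6 ratios, where the smallest possible p is 0.00476). The log2 ratio of Insr to Igf1r was -0.697 ± 0.901 in tumours (SD, n = 6) and 1.19 ± 0.691 in glands (SD, n = 4). Its range was -2.12 to 0.20 in tumours and 0.524 to 2.15 in glands, with no overlap and a difference of -1.89 (exact permutation test, two-sided, p = 0.00952, adjusted p = 0.0429). Counts at Igf1r thus exceeded those at Insr in 5 of 6 tumours and in 0 of 4 glands, on counts not divided by length. Without tumour 1 or any single gland in turn neither ratio passed (adjusted p = 0.0714 to 0.0952), with differences of -3.78 to -4.52 for Igf1 and -1.57 to -2.11 for Insr.

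**Figure D3:**
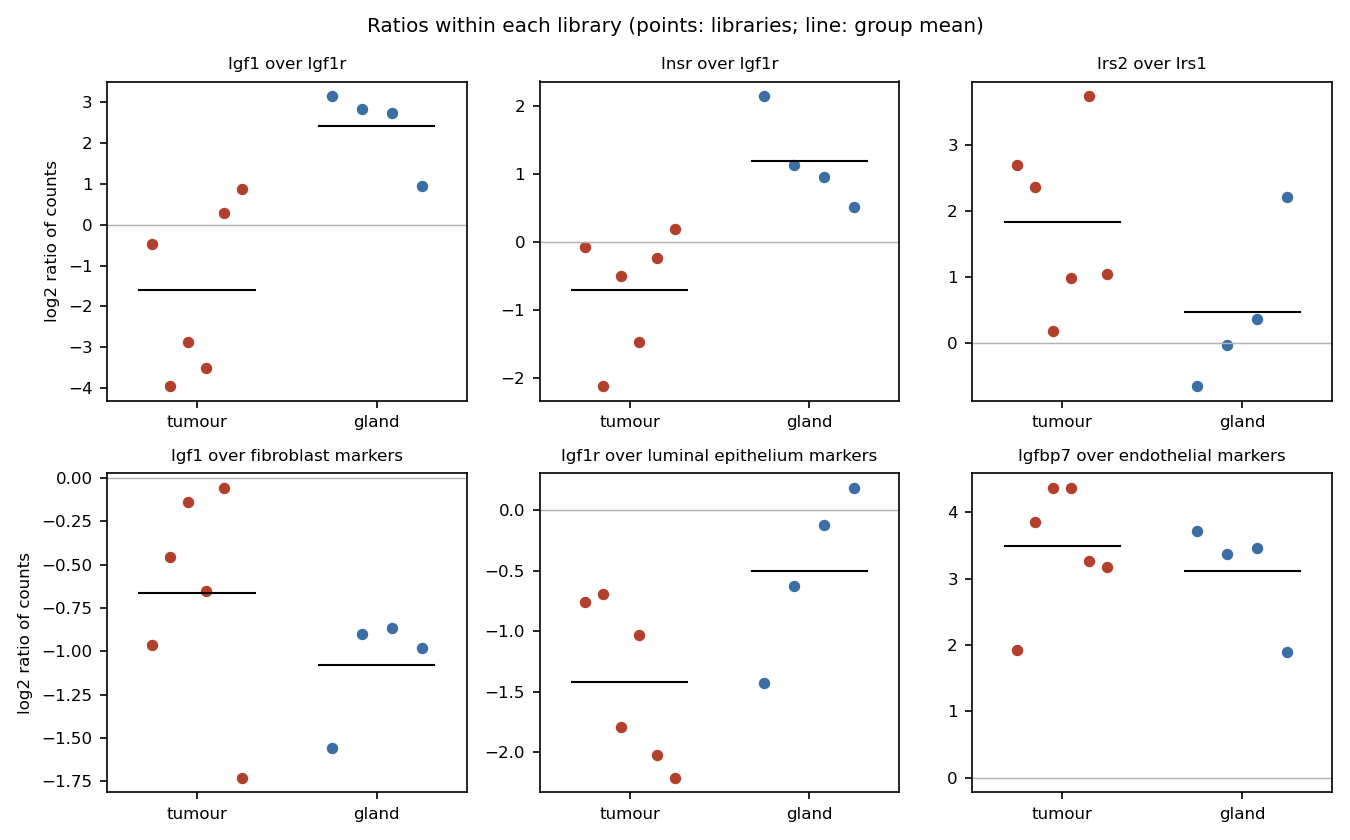
Log2 ratios of counts within each library for 6 pairs, with points for 6 tumours and 4 glands and a line at each group mean. The groups separate for Igf1 over Igf1r and Insr over Igf1r, and overlap for the other 4.

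Irs1, the insulin receptor substrate gene, was at 1.44, 5.14, 19.8, 8.13, 1.95 and 10.6 CPM in tumours 1 to 6, against 40.9, 25.5, 16.5 and 6.74 CPM in glands 1 to 4. Tumour 3 lay above glands 3 and 4, and gland 4 lay below 3 of the tumours. The log2 difference of -1.51 ± 0.698 did not pass (SE; adjusted p = 0.153, edgeR). The related adaptor gene Irs2 was at 9.46 to 26.4 CPM in tumours and 21.1 to 31.3 CPM in glands (log2 difference -0.338; adjusted p = 0.448). The log2 ratio of Irs2 to Irs1 was 1.83 ± 1.32 in tumours (SD, n = 6) and 0.47 ± 1.23 in glands (SD, n = 4), and the groups overlapped (exact permutation test, two-sided, p = 0.148, adjusted p = 0.221).

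Among the binding proteins, Igfbp6, whose product prefers IGF2 over IGF1, fell furthest. It was at 24.8, 1.59, 0.223, 2.15, 2.68 and 37.5 CPM in tumours 1 to 6, against 315, 186, 197 and 84.2 CPM in glands 1 to 4. No tumour reached a gland, and tumours 1 and 6 stood well above the other tumours. Tumour 3 held 9 counts of this gene, while gland 2 held 11932. The log2 fold change was -4.09 ± 1.13 (SE; adjusted p = 0.0355, edgeR), -5.11 without tumour 6 and -6.88 without tumours 1 and 6 (adjusted p = 0.0171 and 0.00162). The call was lost without tumour 2, 4 or 5 or gland 1, 2 or 3 (-3.78 to -4.13, adjusted p = 0.0562 to 0.0905). Its SD over tumours, 2.71 on the log2 scale, exceeded that of 95.8% of tested genes. The fibroblast marker sums, 219 to 6700 CPM in tumours and 3660 to 8250 CPM in glands, were highest in tumour 6 among the tumours, and their part in the fall of Igfbp6 was not tested.

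Igfbp7, whose product binds IGFs weakly and is abundant around blood vessels, also fell. It was at 32.0, 42.3, 40.0, 76.7, 90.0 and 123 CPM in tumours 1 to 6, against 251, 217, 202 and 77.5 CPM in glands 1 to 4. Glands 1 to 3 lay above every tumour, and gland 4 lay among the tumours. The log2 fold change was -1.47 ± 0.444 (SE; adjusted p = 0.0464, edgeR). It was not called without tumour 1, 2, 3, 4 or 5 or gland 1, 2 or 3 (-1.31 to -1.56, adjusted p = 0.0562 to 0.137), nor under upper-quartile scaling (-1.30, adjusted p = 0.0563). Of 8 endothelial markers 4 fell, beside 8.19% called lower among all tested genes. Their sums were 44.2 to 446 CPM in tumours and 177 to 229 CPM in glands, with none at 0. The sum of 446 CPM belonged to tumour 1, where Pecam1 alone was at 408 CPM, and tumours 2 to 6, at 44.2 to 147 CPM, lay below every gland. Against the mean log2 level of these markers, Igfbp7 was at 3.49 ± 0.924 in tumours (SD, n = 6) and 3.11 ± 0.821 in glands (SD, n = 4), a difference of 0.378 (exact permutation test, two-sided, p = 0.529, adjusted p = 0.529). Without gland 4 this difference was -0.0255.

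Igfbp3, whose product carries most IGF in the circulation, was the member that rose. It was at 23.6, 67.7, 131, 140, 108 and 82.2 CPM in tumours 1 to 6, against 40.2, 32.4, 27.6 and 15.1 CPM in glands 1 to 4. Tumours 2 to 6 lay above every gland, and tumour 1 lay below glands 1, 2 and 3 but above gland 4. The means were 92.0 ± 43.4 CPM in tumours (SD, n = 6) and 28.8 ± 10.5 CPM in glands (SD, n = 4). The log2 fold change of 1.67 ± 0.477 (SE; adjusted p = 0.0387, edgeR) corresponds to 3.19-fold. The call held without tumour 1 (1.86, adjusted p = 0.00974) and was lost in the other 9 fits that left out 1 library, those without tumour 2, 3, 4, 5 or 6 or any single gland (1.42 to 1.87, adjusted p = 0.0509 to 0.0973). Limma-voom did not call it (adjusted p = 0.0607).

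The windows before the RefSeq start sites of the 4 genes that passed are shown as a description. A relation of these sequences to the direction of change was not tested, and further start sites of these genes were not examined. Each is the 250 bases upstream of a start site (RefSeq, GRCm38.p6, a later build than the mm9 named by the submitters), with matches on either strand in capitals. The motifs searched were the TATA box TATAAA, the GC box GGGCGG, the CCAAT box, the E-box CACGTG, and for E2F the site TTTCGCGC or the site TTTGGCGC.
Igf1 (chr10:87860861-87861110, plus strand): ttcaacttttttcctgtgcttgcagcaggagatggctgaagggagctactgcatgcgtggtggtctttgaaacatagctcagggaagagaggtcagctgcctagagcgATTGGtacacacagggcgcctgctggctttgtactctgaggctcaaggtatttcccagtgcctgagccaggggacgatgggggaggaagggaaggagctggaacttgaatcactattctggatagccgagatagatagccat
Igfbp3 (chr11:7213924-7214173, minus strand): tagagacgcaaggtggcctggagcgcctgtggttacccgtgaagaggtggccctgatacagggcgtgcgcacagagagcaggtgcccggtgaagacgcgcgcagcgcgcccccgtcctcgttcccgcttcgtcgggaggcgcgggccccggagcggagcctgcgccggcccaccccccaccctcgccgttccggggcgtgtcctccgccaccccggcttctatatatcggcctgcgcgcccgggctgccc
Igfbp6 (chr15:102143936-102144185, plus strand): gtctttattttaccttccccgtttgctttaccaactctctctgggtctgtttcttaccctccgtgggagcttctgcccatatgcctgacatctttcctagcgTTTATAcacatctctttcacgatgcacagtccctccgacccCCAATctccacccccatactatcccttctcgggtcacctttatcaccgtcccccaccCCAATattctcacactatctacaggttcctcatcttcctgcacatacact
Igfbp7 (chr5:77408046-77408295, minus strand): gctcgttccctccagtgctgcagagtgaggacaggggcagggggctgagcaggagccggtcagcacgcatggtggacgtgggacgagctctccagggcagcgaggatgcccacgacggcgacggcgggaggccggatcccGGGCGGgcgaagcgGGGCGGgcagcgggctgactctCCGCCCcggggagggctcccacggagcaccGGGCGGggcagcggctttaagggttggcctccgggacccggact
The Igfbp3 window held 32 CG dinucleotides and that of Igfbp7 held 26, against 7 in Igfbp6, 5 in Igf1 and a median of 6 over 32851 windows. Igfbp7 had 4 GGGCGG matches, at 110, 96, 74 and 44 bases before the start, a motif found in 32.7% of all windows. Igfbp6 had CCAAT at 107 and 50 bases before the start and Igf1 had it on the minus strand at 142 (read as ATTGG above), where 33.8% of windows hold it. TATAAA was matched on the minus strand 148 bases before the Igfbp6 start and in 12.4% of windows. No match occurred in the Igfbp3 window, and no overlap between matches in any of the 4. Windows were found for 9 of the 10 genes, with a pair for Igfbp2. The E2F sites had no match in these, against 0.256% of all windows for TTTCGCGC, and 0.417% for the other, and CACGTG, the E-box bound by Myc, was matched in the window of Irs1 and in 1 of the pair of Igfbp2, against 6.02% of all windows. A match is a run of letters and not evidence of binding.

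Igfbp5 had the largest counts of the 10 genes without passing the test. It was at 326, 3260, 1260, 1940, 469 and 2890 CPM in tumours 1 to 6, against 756, 553, 563 and 726 CPM in glands 1 to 4. Tumours 2, 3, 4 and 6 lay above every gland, while tumours 1 and 5 lay below every gland. The glands varied 1.37-fold from lowest to highest and the tumours 9.99-fold. The log2 difference was 1.38 ± 0.657 (SE; adjusted p = 0.164, edgeR), and it did not pass under any alternative tried (adjusted p = 0.0728 to 0.319).

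Igfbp4, whose product is cleaved by the protease encoded by Pappa, was at 165, 67.4, 10.4, 31.3, 92.4 and 267 CPM in tumours 1 to 6, against 499, 396, 399 and 118 CPM in glands 1 to 4. Tumours 2 to 5 lay below every gland, and tumours 1 and 6 lay above gland 4. The log2 difference was -1.74 ± 0.728 (SE; adjusted p = 0.122, edgeR). It passed without tumour 6, at -2.35 (adjusted p = 0.0447), and without tumours 1 and 6, at -2.82 (adjusted p = 0.0224).

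Igfbp2, which encodes a binding protein with an integrin-binding motif, was at 7.54, 1.5, 5.07, 120, 6.36 and 46.5 CPM in tumours 1 to 6, against 5.34, 3.93, 5.35 and 1.78 CPM in glands 1 to 4. The high values belonged to tumours 4 and 6, and tumour 2 lay below every gland. The log2 difference was 2.92 ± 1.15 (SE; adjusted p = 0.103, edgeR) and 1.72 without tumour 4. The tumours spanned 80-fold, and their SD of 2.31 on the log2 scale exceeded that of 92.7% of tested genes.

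Levels of different genes were compared in TPM, which divides counts by transcript length and scales every library to the same total. The longest protein-coding transcript of each gene in GENCODE M21 gave its length. From high to low, mean TPM ran in the order Igfbp5, Igfbp7, Igfbp3, Igfbp2, Igfbp4, Igfbp6, Igf1r, Insr, Igf1, Irs1 in tumours. In glands the order was Igfbp6, Igfbp7, Igfbp5, Igfbp4, Igf1, Igfbp3, Insr, Igfbp2, Irs1, Igf1r. Many neighbours in these orders lay within each other's SD. TPM was not TMM-scaled, so abundant transcripts in a library lower the TPM of all its other genes. Igfbp5 was at 104 TPM in gland 4 and 223 to 251 TPM in glands 1 to 3, but at 726 and 553 to 756 CPM. In tumour 1 it was at 27.1 TPM and 326 CPM. Means and SDs in TPM therefore also carry differences in library composition. In tumours Igfbp5 averaged 566 ± 503 TPM and Igfbp7 106 ± 66.0 TPM (SD, n = 6). In glands Igfbp6 averaged 367 ± 212 TPM, Igfbp7 330 ± 184 TPM and Igfbp5 202 ± 66.1 TPM (SD, n = 4). With the median transcript length, an alternative added once the data had been seen, Igf1 averaged 196 ± 103 TPM in glands, against 42.9 ± 22.9 TPM with the longest, so its place depends on which transcript is taken. With that length Igfbp5, at 182 ± 57.3 TPM, came after Igfbp4 and Igf1 in glands, and Igfbp4 came before Igfbp2 in tumours. Among 19536 genes with a length, Igfbp5 ranked 102nd in tumour 2, 126th in tumour 6, 186th in tumour 4 and 350th in tumour 3, but 764th in tumour 1 and 614th in tumour 5. It ranked 482nd to 535th in the glands.

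Among the 6 binding-protein genes, the make-up per kilobase differed between the groups. Igfbp6 made up 0.0659% to 13.8% of their transcripts in tumours and 25.3% to 36.8% in glands. Igfbp3 made up 4.47% to 19.4% in tumours and 2.04% to 2.39% in glands, so that tumour 1, whose Igfbp3 level lay within the glands, was above them in share. Igfbp5 made up 33.6% in tumour 1, 34.1% in tumour 5 and 59.2% to 86.7% in the other 4 tumours, against 16.4% to 16.8% in glands 1 to 3 and 40.3% in gland 4. Igfbp4 and Igfbp7 overlapped, at 0.897% to 26.6% and 5.62% to 32.8% in tumours and 10.3% to 18.6% and 21.6% to 32.3% in glands. With median transcript lengths, too, the groups stayed apart for Igfbp6 (0.0632% to 11.5% in tumours, 23.4% to 32.6% in glands) and Igfbp3 (4.87% to 20.3% in tumours, 2.09% to 2.46% in glands). The shares within a library sum to the whole and were not tested.

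**Figure D4:**
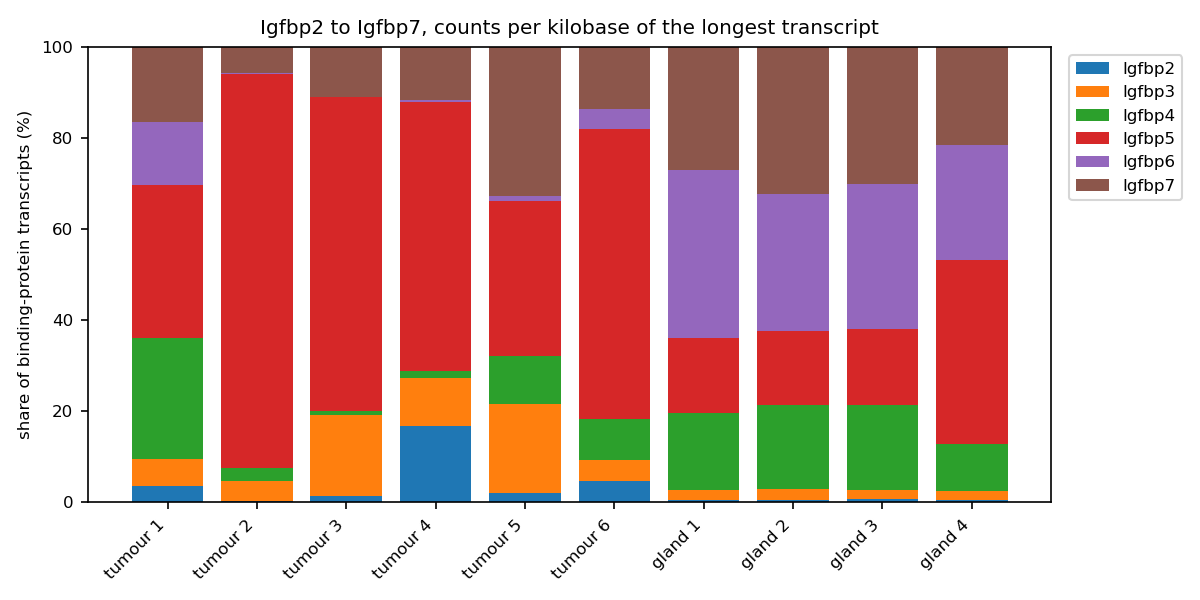
Share (%) of counts per kilobase that each of Igfbp2 to Igfbp7 took in each library, with 6 tumours on the left and 4 glands on the right. Igfbp5 takes 86.7% in tumour 2, and Igfbp6 takes at least 25.3% in every gland and at most 13.8% in every tumour.

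The tumours were not alike across the 10 genes. Tumour 2 had the highest levels of Igf1r and Igfbp5 among the 6 tumours and the lowest of Igfbp2. Tumour 4 had the highest levels of Igfbp2 and Igfbp3. Tumour 3 had the lowest levels of Igf1, Igfbp4 and Igfbp6 and the highest of Irs1. Tumour 6, with 19.6% salivary marker counts and the highest fibroblast sum of the tumours, 6700 CPM, had the highest levels of Igf1, Igfbp4, Igfbp6 and Igfbp7. Tumour 1, with 52.4% salivary marker counts and the next-highest levels of Igfbp4 and Igfbp6, had the lowest levels of Irs1, Igfbp3, Igfbp5 and Igfbp7. The part of the salivary transcripts in these values was not tested. Gland 4, the oldest gland, had the lowest levels of Igf1, Irs1, Igfbp2, Igfbp3, Igfbp4, Igfbp6 and Igfbp7 of the 4 glands and the highest of Igf1r.

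Genes with the most similar profiles were taken as those with the smallest root-mean-square difference of log2 CPM over 10 libraries, each gene centred on its mean. The nearest to Igf1 were Shank3, Igsf10 and Lrrk2, at 0.252, 0.279 and 0.299, where Igf1 itself varied by 1.75 around its mean. Nearest to Igf1r were Nfib, Brd3 and Stox2 (0.25, 0.325 and 0.347, against 0.877). Insr was closest to Iqcc, Suds3 and Tusc2 (0.194, 0.208 and 0.211, against 0.462). Igfbp7 was closest to Col4a2, a basement membrane collagen, at 0.24, then Zfp976 and Hsd3b7, both at 0.317. Igfbp3 was closest to Cttnbp2nl, Fam72a and Tubb2b (0.272, 0.347 and 0.351), and Igfbp4 to Man2b2, Olfm1 and Plekho2 (0.245, 0.319 and 0.331). For Igfbp5 the nearest were Pagr1a, Tpbg and Cpsf4l (0.39, 0.50 and 0.518), and for Igfbp6 they were Abca6, Cd209g and Gdf10 (0.522, 0.614 and 0.639, against 3.39). Irs1 was nearest to Cav2, Mgst1 and Pank3 (0.546, 0.585 and 0.627, against 1.47), and Igfbp2 to Padi4, Adamts4 and Actg2 (0.68, 0.827 and 0.957, against 1.85). All libraries enter these distances, so the difference between tumours and glands contributes to them.

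Of 12 tested genes among 16 further IGF axis genes, Stc1 rose and Stc2 and Grb14 fell, beside 15.1% called among all tested genes. Their products restrain the axis at different steps, the stanniocalcins by inhibiting the protease that cleaves Igfbp4 and Grb14 by binding activated insulin receptors. Stc2 was at 2.42 to 17.9 CPM in tumours (median 5.09) and 105, 75.9, 69.7 and 79.3 CPM in glands 1 to 4, which is a log2 change of -3.43 ± 0.558 (SE; edgeR adjusted p = 0.00539). Every tumour lay below every gland, and the call held in all 10 fits without 1 library. Grb14 was at 1.10 to 4.92 CPM in tumours and 18.7, 9.13, 12.2 and 68.0 CPM in glands 1 to 4, which is a log2 change of -3.20 ± 0.614 (SE; edgeR adjusted p = 0.00991) and -2.25 without gland 4 (adjusted p = 0.0195). Stc1 was at 6.21 to 43.6 CPM in tumours and 1.74 to 3.62 CPM in glands, which is a log2 change of 2.60 ± 0.676 (SE; edgeR adjusted p = 0.0285). It was not called without any single gland (2.39 to 2.75, adjusted p = 0.0582 to 0.0908) nor by limma-voom (2.13, adjusted p = 0.078) nor without tumours 1 and 6 and gland 4 (2.39, adjusted p = 0.0779), and it was at 2.02 without tumour 2 (adjusted p = 0.0437).

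Igf2, the gene of the other main IGF ligand, is named here because of its value in a single library. It was at 573 CPM in tumour 2, from 37903 counts, and at 0.0989 to 23.6 CPM in the other tumours, against 2.71, 1.86, 0.557 and 43.9 CPM in glands 1 to 4. The log2 difference was 3.05 ± 2.21 (SE; adjusted p = 0.343, edgeR) and -1.0 without tumour 2 (adjusted p = 0.669). It was 5.81 without gland 4. Tumour 2 was also the tumour with the highest Igf1r and Igfbp5 levels.

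Upstream of Igf1, 3 of 8 genes of growth hormone signalling fell and 0 rose, beside 8.19% lower among all tested genes, and the median log2 fold change of the list was -0.0576. Of its feedback inhibitor genes, Socs2 and Socs3 had log2 differences of 1.98 and 1.09 that did not pass (edgeR adjusted p = 0.054 and 0.172). Those of Cish and Socs1 were smaller, 0.466 and 0.23 (edgeR adjusted p = 0.551 and 0.88). Socs2 lay above every gland in 5 of 6 tumours. Ghr, the growth hormone receptor gene, was at 9.19 to 111 CPM in tumours (median 40.3) and 738, 604, 583 and 219 CPM in glands 1 to 4, which is a log2 change of -3.49 ± 0.683 (SE; edgeR adjusted p = 0.0105). Stat5a and Stat5b, the transcription factors it activates, changed by -1.79 ± 0.43 and -1.99 ± 0.383 (SE; adjusted p = 0.0216 and 0.00995, edgeR). All tumours lay below all glands for each of the 3 genes and for no other of the 8, beside 7.5% of all tested genes. The calls of Ghr and Stat5b held in all 10 fits without 1 library, and that of Stat5a was lost without gland 1 or 2 (-1.61 and -1.75, adjusted p = 0.0717 and 0.056) and with age as a covariate (-1.62, adjusted p = 0.0583). Markers of adipocytes, a cell type rich in Ghr, were lower in the same libraries (10 of 10 fell, sums of 14.9 to 1080 CPM in tumours and 4060 to 25000 CPM in glands). Their part in these falls was not tested.

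Downstream, 6 of 35 genes of the PI 3-kinase, Akt, mTOR and Foxo branch fell and 0 rose. Among all tested genes 8.19% were lower and 6.89% higher. In either direction, 17.1% of the branch was called beside 15.1% of all tested genes. An unadjusted p below 0.05 was found for 15 of its genes, a share not counted over all tested genes. Akt2, an Akt isoform prominent in insulin-responsive tissues, was at 26.6 to 97.5 CPM in tumours and 186 to 315 CPM in glands, which is a log2 change of -1.74 ± 0.355 (SE; edgeR adjusted p = 0.012) that held in all 10 fits without 1 library. Adipocyte markers (10 of 10 fell, sums of 14.9 to 1080 CPM in tumours and 4060 to 25000 CPM in glands) and skeletal muscle markers (6 of 8 fell, 2.65 to 835 CPM in tumours and 36.3 to 114000 CPM in glands) were lower in the same tumours, and their part in the falls of this branch was not tested. The lipid phosphatase gene Inpp4b changed by -2.58 ± 0.778 (SE; adjusted p = 0.0459, edgeR), called only without tumour 5 among such fits (-3.58, adjusted p = 0.00842; others -2.18 to -2.92, adjusted p up to 0.133). It was at 6.53, 47.3, 29.8 and 25.1 CPM in glands 1 to 4, and the part of the lymphocyte markers, high in glands 2 and 3, was not tested. Tsc2, a brake on mTOR, and Mtor itself changed by -1.08 ± 0.278 and -0.945 ± 0.243. Foxo4, a transcription factor that Akt holds inactive, and Sos2, an activator of Ras, changed by -1.12 ± 0.333 and -0.956 ± 0.281 (SE; adjusted p for these 4 from 0.0273 to 0.0437, edgeR). Each of these 4 calls was lost without gland 1 or 2, among other libraries (adjusted p up to 0.119). Under upper-quartile scaling 2 genes of this branch were called, beside 3122 of 20101 tested genes. With DESeq2 12 were called, beside 5252 of 20101.

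**Figure D5:**
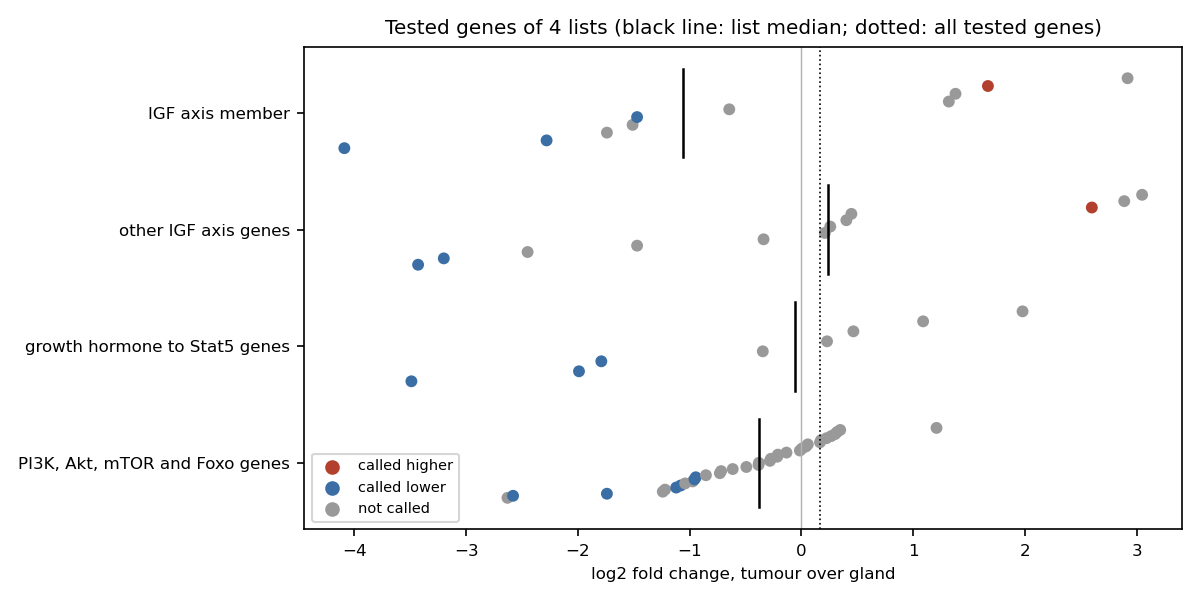
Log2 fold changes of tumours over glands for tested genes of 4 lists, coloured by call, with a black line at each list's median and a dotted line at 0.17, the median of all tested genes. The medians are -1.06 for the 10 IGF axis genes, 0.234 for other IGF axis genes, -0.0576 for growth hormone signalling and -0.38 for the PI 3-kinase branch.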

How the data were processed

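Whole tissue was homogenized in TRIzol, and sequencing libraries were built with NEBNext Ultra reagents, per the labels' protocols. The authors deposited whole-number read counts per gene symbol for 10 libraries. Per the submitters' processing notes, mm9, DESeq and Salmon 1.2.0 were involved, in roles not stated, and no source used here states the strandedness. Of 13 samples, 3 of purified epithelium were not analysed here. Groups came from the labels, tumours being numbered in accession order. The tumours carry separate numbers and differ in age, but the labels do not say that every library came from its own animal, and p-values cover the spread among these libraries. Among 45 pairs of libraries none was a copy (chi-square over its degrees of freedom at least 37.8).

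Counts were filtered with filterByExpr, scaled by TMM and tested with edgeR 4.0.16 (quasi-likelihood, R 4.3.3) over all genes, with no covariate. The TMM factors were 0.422 to 1.41 in tumours and 0.58 to 1.33 in glands. Standard errors are the log2 fold change over the square root of F. Ratios use counts with 0.5 added and exact permutation over 210 arrangements. Tested on simulated data for this comparison (19397 genes), the test found 1 of 67 genes set to a 2-fold change, 8 of 67 at 4-fold, and 42 of 66 at 8-fold. It made 0 false calls. No other genes were changed there, whereas 3030 of 20101 tested genes were called between the tumours and glands. The adjusted p depends on how many genes differ, and these rates do not carry over to the tumours and glands. There, Mtor passed at a log2 fold change of -0.945. The share of real differences that the test finds was not tested, and a gene that misses the threshold may still differ. The alternatives took other scalings (RLE, upper quartile), other tools (DESeq2 1.42.0, limma-voom 3.58.1), 2 other filters, age, removal of salivary and mitochondrial genes, and leaving out libraries. Transcript lengths came from GENCODE M21, which gave a length to 19536 of 38279 symbols. In a separate reference list of gene names, 97.2% of the symbols were found. The named genes were the 10 members, every called gene of 3 neighbouring lists, and the 3 genes nearest to each member. Outside this rule, Fbxw7 was named as the targeted gene, and Igf1os and Irs2 for their relation to Igf1 and Irs1. Socs1, Socs2, Socs3 and Cish were named as list members that did not pass. Pecam1 was named as a marker whose value in 1 library set a range, and Col3a1 and Col1a2 as large parts of a sum. Igf2 and Irs3 were named after their values were seen. The members and all lists were chosen with earlier results of these data known.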

Additional observations from a re-analysis of the deposited data

Results flagged for a closer look

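In all, 58 groups of values were examined, from the 10 members, 12 called genes of the neighbouring lists, Igf2 and 6 ratios. Of these, 7 held a library far from the others of its group. The rule flags about 1 in 20 groups of independent, normally distributed values. These groups share libraries and most are in CPM, so their count cannot be set against that rate. Igf2 was included because of its value in tumour 2, so that flag was fixed in advance. Igf2 was at 573 CPM in tumour 2, with 0.0989 to 23.6 CPM in the other tumours. It was at 43.9 CPM in gland 4, with 0.557 to 2.71 CPM in the other glands. Gland 4 also stood apart for Grb14, at 68.0 CPM against 9.13 to 18.7 CPM, and for Stat5b, at 135 CPM against 50.2 to 62.8 CPM. Akt2 was at 315 CPM in gland 1 and 186 to 194 CPM in the other glands. Inpp4b was at 15.8 CPM in tumour 5 and 0.915 to 4.04 CPM in the other tumours. The log2 ratio of Igf1 to fibroblast markers was -1.56 in gland 1 and -0.979 to -0.868 in the other glands. None of the 10 IGF axis genes was flagged in either group.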

How the results depend on the processing

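No paired analysis was possible because the groups share no replicate numbers in the labels. All 10 members kept their direction under all 20 alternatives. Upper-quartile scaling raised log2 fold changes by a median of 0.16 and gave 1809 genes higher and 1313 lower in place of 1384 and 1646. The number of genes called was 5252 with DESeq2 (2657 higher, 2595 lower), 1899 with age as a covariate (908 and 991), 4640 without tumours 1 and 6 and gland 4 (2826 lower), and 1053 to 3521 without 1 library (430 to 1737 higher, 623 to 1849 lower). Members called numbered 2 with upper-quartile scaling (1 lower), 2 with no filter (0 higher), 1 with age (0 higher, 1 lower) and 0 to 4 without 1 library (0 to 1 higher, 0 to 4 lower). DESeq2 called 3 higher, limma-voom 0 higher, and both sets without tumours 1 and 6 gave 5 lower. Among all tested genes, 2474 were called with no filter, 3074 with limma-voom and 4255 without tumours 1 and 6.

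Calls lost were Igf1 (-2.10 with upper-quartile scaling, -2.13 with age), Igfbp3 (1.5 with limma-voom, 1.67 with no filter, 1.73 with age) and Igfbp7 (-1.30 with upper-quartile scaling, -1.48 with no filter, -1.31 with age). Calls gained were Igf1r (1.29) and Igfbp2 (2.89) with DESeq2, and Insr (-0.908 and -0.983) and Igfbp4 (-2.82 and -3.20) without tumours 1 and 6 and also without gland 4. Without 1 library the log2 fold changes were -2.85 to -2.06 for Igf1, 1.07 to 1.57 for Igf1r, -0.793 to -0.52 for Insr, -2.03 to -1.06 for Irs1, 1.72 to 3.19 for Igfbp2, 1.42 to 1.87 for Igfbp3, -2.35 to -1.5 for Igfbp4, 1.09 to 1.58 for Igfbp5, -5.11 to -3.78 for Igfbp6 and -1.78 to -1.31 for Igfbp7. The neighbouring lists gave 5 further IGF axis genes with DESeq2 and 2 to 5 without 1 library, 2 to 4 growth hormone genes without 1 library, and 2, 12, 1 and 11 PI 3-kinase branch genes with upper-quartile scaling, DESeq2, no filter and without tumours 1 and 6 and gland 4 (1 to 7 without 1 library). The Igf1 and Insr ratios to Igf1r were -4.93 and -2.27 without tumours 1 and 6 (adjusted p = 0.0571 for both), where fewer arrangements limit the p, and -4.52 to -3.56 and -2.11 to -1.57 without 1 library. Igfbp7 over endothelial markers turned to -0.0255 without gland 4 and ran to 0.691, Irs2 over Irs1 ran from 0.982 to 1.94, Igf1 over fibroblast markers from 0.25 to 0.624 and Igf1r over luminal markers from -1.23 to -0.691. Igf2 turned to -1.0 without tumour 2 and ran to 5.81 without gland 4. Apart from fewer samples and fewer or more genes tested, the cause of these moves was not tested. Low counts limit Igfbp6 in tumour 3 and Irs1 in tumour 1, at 9 and 21 counts.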

Other observations

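Irs3, a further insulin receptor substrate gene that rodents express mainly in fat, was on no list and is named after its values were seen. It was at 0 to 1.14 CPM in tumours, from 0 to 41 counts, against 35.5, 20.1, 18 and 4.39 CPM in glands 1 to 4. Every tumour lay below every gland, and the log2 fold change was -5.68 ± 1.18 (SE; adjusted p = 0.0129, edgeR), called in all 10 fits without 1 library. Adipocyte markers were lower in the same libraries, with sums of 14.9 to 1080 CPM in tumours and 4060 to 25000 CPM in glands, and their part in the fall of Irs3 was not tested.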
